A study of Mus musculus with 2 samples.

Results

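Cytosolic ribosomal proteins were read out by 134 probes under 81 gene symbols in B cells sorted from mouse lymph nodes. The members were the non-control probes whose gene name is Rpl or Rps followed by a number, or Rplp0, Rplp1, Rplp2 or Rpsa. Names beginning with Rps6k, which are kinases, and names ending in l1 were left out. The array carried 41174 probes under 27745 names, of which 25975 probes were bright enough to be tested. Of the members, 132 probes were tested, and they cover all 81 symbols. The large subunit had 46 symbols and 74 probes, all tested. The small subunit had 31 symbols and 55 probes, of which 53 were tested. The paralogs Rpl3l, Rpl36al and Rps27l had 1 probe each. Rps19bp1, with 2 probes, is not a ribosomal protein but binds one, and was taken in by its name.

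RNA of Ccr7 knock-out B cells (strain B6.129P2(C)-Ccr7tm1Rfor/J) was set against RNA of wild-type B cells (strain C57BL/6J), both sorted from peripheral lymph nodes and not cultured. Ccr7 encodes a chemokine receptor that guides lymphocytes into lymph nodes, and the knock-out mice carry the targeted allele in every cell. The design text gives 12 RNA samples, 6 per genotype, combined in pools of 3, so that each genotype had 2 pools. Each of 2 two-colour arrays held 1 knock-out and 1 wild-type pool: array 1 carried knock-out RNA in Cy5 and wild-type RNA in Cy3, and array 2 had the dyes swapped. The unit of replication is the array (n = 2), p-values measure only the spread between these 2 pool pairs and a spread pooled over all probes, and dye and pool cannot be told apart on 1 array. The sources used here give neither age nor sex of the animals.

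A cytosolic ribosome has a small subunit, which decodes the mRNA, and a large subunit, which forms the peptide bonds. Each protein is needed in about the same number of copies, and the transcripts are among the most abundant of a growing cell. Most of these mRNAs begin with a C and a run of pyrimidines, the terminal oligopyrimidine tract, through which the kinase mTOR and the protein Larp1 control their translation. That control acts on translation, which an array of RNA levels does not read.

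Start sites were looked up in the RefSeq promoter table (GRCm38.p6), which held 56 of the 77 core symbols. A C at the annotated start followed by 4 pyrimidines on the transcript strand was found in 13 of these 56 genes (23.2%), against 813 of all 27025 genes in the table (3.01%). The letters CTTTCC within the 30 bases around the start, 10 before it and 20 from it on, were found in 9 of the 56 genes (16.1%), against 412 of all genes (1.52%). The reverse strand held these letters in 0 of the 56 genes, against 409 of all genes (1.51%). The 2 searches can match the same bases, and an annotated start can lie some bases away from the one these cells use. The windows of 5 members that recur in the results are shown, with the unbroken run of pyrimidines that begins at the annotated start in capitals.
Rplp2: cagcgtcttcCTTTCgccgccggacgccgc
Rps6: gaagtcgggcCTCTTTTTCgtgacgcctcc
Rps21: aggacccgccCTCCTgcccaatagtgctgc
Rplp0: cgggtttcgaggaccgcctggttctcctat
Rps16: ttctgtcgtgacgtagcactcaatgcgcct
They lie at chr7:141447641-141447670 (plus strand), chr4:86857348-86857377 (minus strand), chr2:180257369-180257398 (plus strand), chr5:115559457-115559486 (plus strand) and chr7:28350679-28350708 (plus strand). Rplp2, Rps6 and the Rps21 start shown had a tract, and Rplp0 and Rps16 had none there. The table holds a second Rps21 start, at chr2:180257439-180257468, where the run of pyrimidines was 1 base long.

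Ccr7 itself gave signals of 3644 (array 1) and 1751 (array 2) in knock-out RNA, against 7236 and 6420 in wild-type RNA. The log2 knock-out over wild-type came to −1.11 on array 1 and −0.74 on array 2, a mean of −0.93 ± 0.15 (SE of the limma fit, n = 2 arrays), or 1.90-fold lower, with an adjusted p of 0.104. The direction was that of the labels on both arrays, but it did not pass the threshold of 0.05. The sources used here do not say whether this probe lies in the deleted stretch. In knock-out RNA 68.2% (array 1, Cy5) and 58.4% (array 2, Cy3) of spots were well above background, against 63.1% (array 1, Cy3) and 68.8% (array 2, Cy5) in wild-type RNA. Markers of B cells (Cd79a, Cd79b, Ms4a1, Pax5, Cr2 and Blnk) were detected with 9 probes, of which 0 passed the adjusted threshold in limma. An unadjusted p below 0.05 was found for 1 of them, a Pax5 probe (A_52_P429826). Its log2 ratios were −0.79 and −0.86, with an adjusted p of 0.108, while the other Pax5 probe (A_51_P122855) had a mean of 0.01. Of the 6 plasma cell probes 2 passed the adjusted threshold and 4 had an unadjusted p below 0.05, 3 higher and 1 lower in the knock-out. Their mean log2 ratios had a median of 0.25, with 3 above 0 and 3 below, and the lowest was −0.64. Igj (now Jchain), the joining chain of secreted antibody, gave signals of 1175 and 1402 in knock-out RNA, against 285.8 and 715.8 in wild-type RNA, and a mean log2 ratio of 2.00 (limma, adjusted p = 0.0086). The 6 plasma cell probes are of 5 genes. Xbp1, the gene furthest from 0 after Igj, had a mean of 0.70 (limma, adjusted p = 0.18). Both plasma cell probes past the threshold were therefore probes of Igj. The 8 T cell probes had a median log2 ratio of −0.21 (0 called, 4 at an unadjusted p below 0.05) and the 7 proliferation probes a median of 0.43 (0 called, 4 at an unadjusted p below 0.05). The 8 myeloid and dendritic probes and the 5 erythroid probes had medians of 0.19 and 0.01, with 0 called and 1 at an unadjusted p below 0.05 in each list. The shares at an unadjusted p below 0.05 were 66.7% (plasma cell), 50% (T cell), 57.1% (proliferation), 12.5% (myeloid and dendritic) and 20% (erythroid). Over all probes tested that share was 9.83%, and 0.119% were called. The part of these markers in the ratios of the ribosomal protein probes was not tested.

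No ribosomal protein transcript passed the test of knock-out against wild-type. Of the 132 tested probes, 0 had an adjusted p below 0.05 in limma, and the smallest adjusted p was 0.28. Over all 25975 probes 31 passed, or 0.119%, a rate at which a count of 0 among 132 probes is near the background. At an unadjusted p below 0.05, 10 of the 132 probes (7.58%) passed, 4 higher and 6 lower in the knock-out, against 9.83% of all probes tested, which is near that background. The mean log2 ratios of the members lay between −0.50 and 0.47, with a median of 0.14, against a median of −0.01 over all probes tested. The 95% interval of the mean ratio stayed within 2-fold in either direction for 81 of the 132 probes, so for the other 51 a change of 2-fold was not outside the interval.

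The 2 arrays disagreed on most ribosomal protein probes. Their median log2 knock-out over wild-type came to 0.84 on array 1 and −0.44 on array 2, against −0.01 and −0.02 over all probes tested. In 95 of the 132 probes the ratio was above 0 on array 1 and below 0 on array 2, and in 17 it was the other way round. The same sign on both arrays was found in 20 probes (15.2%), 12 higher and 8 lower in the knock-out, against 55.3% of all probes tested. Across the 132 probes the ratios of the arrays had a Pearson correlation of −0.82, against 0.14 across all probes. This is a description across probes that share both arrays, both dyes and a bright range of signal. At least 2-fold in opposite directions were 31 of the 132 member probes, against 59 of all 25975 probes tested. At least 2-fold in the same direction were 0 of the 132, against 28 of all 25975, so that count of 0 is near the background. Read by dye, the median log2 Cy5 over Cy3 of the members was 0.68 after normalization.

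**Figure D1:**
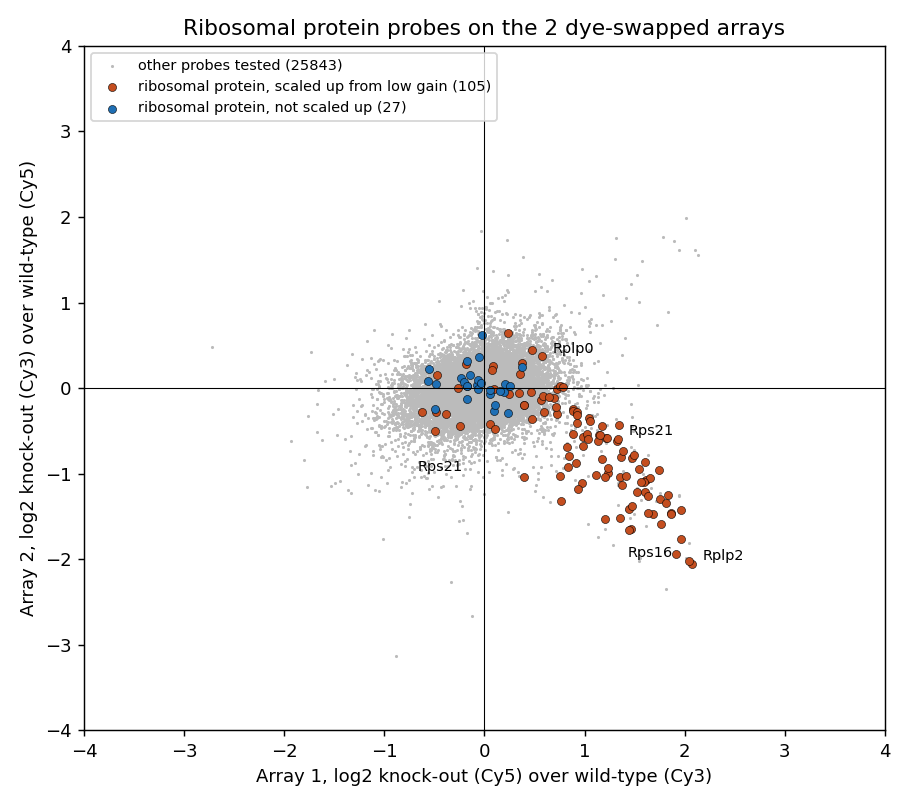
Log2 knock-out over wild-type on array 1 (horizontal axis) and on array 2 (vertical axis) for every probe tested. Grey points are the other 25843 probes, red points the 105 ribosomal protein probes with a signal scaled up from the low gain, and blue points the 27 other ribosomal protein probes. Most red points run down to the lower right, higher in the knock-out on array 1 and lower on array 2. Rplp2 and Rps16 lie at the end of that run, and Rplp0 lies to the upper right of 0. The Rps21 probes A_52_P740562 (labelled) and A_52_P678800 lie to the lower left.

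Most of the members were among the brightest spots. The scanner took 2 readings per array, at a high and a low gain, and where a spot was too bright for the high gain its low-gain reading was multiplied up. Such spots are flagged as scaled up. The flag was set for 114 of the 143 ribosomal protein spots (79.7%), against 2047 of all 43379 spots (4.72%). By probe it was 105 of 132 (79.5%), against 1832 of all 25975 tested (7.05%). At least 1 scaled-up probe was found for 74 of the 81 symbols, and 15 symbols had tested probes of both kinds. No member spot was saturated, and none had an outlier flag. A RefSeq mRNA accession was listed for 99 of the 105 scaled-up probes (94.3%) and for 15 of the 27 others (55.6%), so the dimmer group holds more probes designed on single cDNA or predicted sequences.

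The gap between the arrays was larger among the scaled-up probes, while opposite signs were common in both kinds. The 105 scaled-up probes had median log2 ratios of 1.04 (array 1), −0.62 (array 2) and 0.20 (mean of both). The 27 probes not scaled up had medians of −0.06, 0.04 and −0.02. Of the scaled-up probes 88 were above 0 on array 1 and below 0 on array 2, and 14 (13.3%) had the same sign on both, against 46.5% of all scaled-up probes tested. Among the 27 others 7 were above 0 on array 1 and below on array 2, 14 the reverse, and 6 (22.2%) had the same sign, against 55.9% of all tested probes not scaled up. The correlation between arrays was −0.77 across the 105 probes and −0.13 across the 27. The 95% interval of the mean stayed within 2-fold for all 27 probes not scaled up, against 54 of the 105 scaled-up probes. The SE of the mean log2 ratio was between 0.13 and 0.19 in the 27 probes and between 0.13 and 0.74 in the 105.

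The 1727 other scaled-up probes had a median log2 ratio of 0.05 on array 1 and −0.02 on array 2. By brightness, members and others compared as follows. Above a mean log2 intensity of 16, the 87 ribosomal protein probes had medians of 1.20 and −0.83, against 0.72 and −0.40 in the 168 other probes. The same sign on both arrays was found in 3 of the 87 (3.45%) and in 28 of the 168 (16.7%). Their correlations between arrays were −0.77 and −0.57, and 31 and 28 probes were at least 2-fold in opposite directions. Above 16.5, the 40 ribosomal protein probes had medians of 1.40 and −0.92, and 48 other probes had 1.25 and −0.80. The same sign was found in 0 of the 40 and in 1 of the 48. Between 16 and 16.5, the medians were 0.94 and −0.68 in 47 ribosomal protein probes and 0.58 and −0.30 in 120 others. Between 15.5 and 16, they were 0.30 and −0.05 in 10 ribosomal protein probes and 0.23 and −0.13 in 144 others. Between 15 and 15.5, they were −0.37 and 0.08 in 6 ribosomal protein probes and 0.08 and −0.03 in 236 others. The medians of members and others thus had like signs from 15.5 upward and opposite signs in the step below it. These medians and counts were not tested against each other, and the part of brightness in the pattern was not tested.

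Before normalization the spread between members depended on the dye. In knock-out RNA the 105 scaled-up probes had a lowest, median and highest signal of 25786, 163028 and 295640 in Cy5 on array 1, and of 11838, 36759 and 61696 in Cy3 on array 2. In wild-type RNA these were 20820, 51861 and 78917 in Cy3 on array 1, and 25010, 182321 and 371242 in Cy5 on array 2. Both Cy5 channels ran higher and wider than both Cy3 channels, whichever genotype they held. The 90th percentile was 3.77 times the 10th in knock-out Cy5 and 2.14 times in knock-out Cy3, against 1.62 times in wild-type Cy3 and 3.18 times in wild-type Cy5. In the Cy3 channels, then, the members lay closer together than in the Cy5 channels. Both Cy5 channels also ran higher and wider in the 1727 other scaled-up probes. Their medians were 33472 (knock-out) and 30086 (wild-type) in Cy5, against 12117 and 26345 in Cy3. Their 90th percentile was 4.76 and 5.78 times the 10th in Cy5, against 4.14 and 3.15 times in Cy3.

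**Figure D2:**
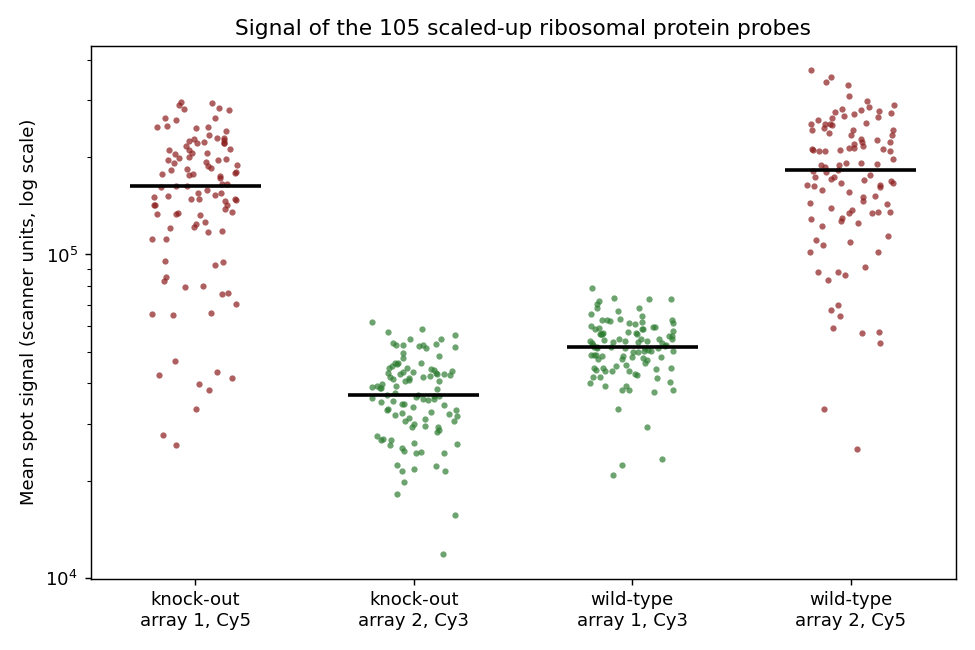
Mean spot signal in scanner units (vertical axis, log scale) of the 105 scaled-up ribosomal protein probes in each of the 4 channels, with Cy5 in red and Cy3 in green. Each point is a probe and the black line is the median. The Cy5 medians are 163028 (knock-out, array 1) and 182321 (wild-type, array 2), and the Cy3 medians 36759 (knock-out, array 2) and 51861 (wild-type, array 1).

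Of the stalk proteins, Rplp0 had the highest mean ratio of all members, and Rplp2 the widest gap between the arrays. The stalk is the flexible arm that recruits elongation factors, with Rplp0 as its base and Rplp1 and Rplp2 as the acidic proteins bound to it. The probe of Rplp2 had signals of 259776 (array 1, Cy5) and 22433 (array 2, Cy3) in knock-out RNA, against 41959 (array 1, Cy3) and 267953 (array 2, Cy5) in wild-type RNA. Its signal was thus high in both Cy5 channels and low in both Cy3 channels, with no order of the genotypes. Its log2 ratio was 2.08 on array 1 and −2.05 on array 2, the widest gap of any member, and the mean of 0.01 had a 95% interval of −1.70 to 1.73. The Rplp1 probe gave 177542 and 24419 in knock-out RNA, against 33215 and 270875 in wild-type RNA on the same arrays, and log2 ratios of 1.92 and −1.94. For these 2 genes the arrays bounded the genotype difference only loosely.

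Rplp0, widely used as a reference gene for RNA levels, was printed 10 times on each array with 1 probe. Averaged over its spots, that probe gave 76265 (array 1, Cy5) and 32524 (array 2, Cy3) in knock-out RNA, against 37468 (array 1, Cy3) and 69605 (array 2, Cy5) in wild-type RNA. The 10 spots ranged in log2 ratio between 0.50 and 0.64 on array 1 (mean 0.58, SD 0.05) and between 0.29 and 0.44 on array 2 (mean 0.37, SD 0.05). The spots of 1 array are repeats of the same hybridization and not replicates of the genotype. Its mean of 0.47 ± 0.14 (SE, n = 2 arrays), the highest of all member probes, had an unadjusted p of 0.0087 and an adjusted p of 0.31 in limma. The probe, shown to let its sequence be set beside the others, lies at chr5:115821920-115821979 on mm8.
Rplp0 A_51_P344103: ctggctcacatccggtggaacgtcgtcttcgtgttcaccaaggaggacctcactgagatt
A pair of further Rplp0 probes is listed under the older name Arbp and so falls outside the naming rule. The first (A_51_P134602) had log2 ratios of 1.41 and −1.42, and the second (A_52_P586574) 1.49 and −0.72. With means of −0.01 and 0.38, they bracketed 0 and did not share the same-signed ratios of the probe printed 10 times.

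Rpl7a, whose gene lies in the Surfeit cluster, had 3 scaled-up probes that gave 3 different answers. Probe A_51_P359862 gave 75732 and 41961 in knock-out RNA, against 39978 and 86606 in wild-type RNA, and log2 ratios of 0.47 and 0.45. Probe A_52_P436206 had ratios of 1.48 on array 1 and −0.82 on array 2. Probe A_52_P548790 gave 42438 and 19862 in knock-out RNA, against 44688 and 64738 in wild-type RNA, and ratios of −0.49 and −0.28. The means were 0.46, 0.33 and −0.38, a range of 0.84, and the first and the last had unadjusted p of 0.0082 and 0.024 with adjusted p of 0.31 and 0.42. The direction of Rpl7a in the knock-out therefore depended on the probe. The probes are shown because the last pair shares 14 bases, in capitals, and still differed by 0.71 in mean log2 ratio.
Rpl7a A_51_P359862: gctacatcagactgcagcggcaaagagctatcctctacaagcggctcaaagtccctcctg
Rpl7a A_52_P436206: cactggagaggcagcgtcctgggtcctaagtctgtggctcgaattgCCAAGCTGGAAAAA
Rpl7a A_52_P548790: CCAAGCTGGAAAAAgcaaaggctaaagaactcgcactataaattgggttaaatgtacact
They lie on mm8 at chr2:26733482-26733541, chr2:26735183-26735242 and chr2:26735229-26735287. The last span is 59 bases long, for a probe of 60 bases. From the first to the last the number of A bases was 16, 15 and 25.

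Of the other large subunit proteins, Rpl4, which reaches into the exit tunnel for the nascent chain, gave 33299 (array 1) and 30480 (array 2) in knock-out RNA, against 22317 and 53219 in wild-type RNA. Its log2 ratios were 0.24 and 0.64, with a mean of 0.44 ± 0.15 (SE, n = 2 arrays) and an adjusted p of 0.39. Rpl29 (A_51_P400137) and Rpl30 (A_51_P268914), which were named after their values were seen, had means of 0.33 and −0.35. Their unadjusted p in limma were 0.037 and 0.035, and their adjusted p 0.47 and 0.46. Rpl29 had 4 tested probes, and the others had means of 0.14, 0.05 and −0.22, the last with its only probe not scaled up. Rpl10, which joins the large subunit late and is needed for the subunits to come together, had 2 probes. They had ratios of 0.56 and −0.14 (A_51_P495895) and of 0.99 and −0.68 (A_52_P171216), and the files place the second on chromosome 13 and the first on chromosome X. Rpl8, which lies close to the catalytic centre, was among the 3 brightest members, and its ratios of 1.22 and −0.59 went with the dyes.

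Among the large subunit probes that were not scaled up, the arrays lay close together in some and apart in others. Rpl11, which can bind the p53 regulator Mdm2 when it is not in a ribosome, had ratios of −0.17 and −0.13 with probe A_52_P566208, where knock-out RNA gave 5264 and 1547 and wild-type RNA 5429 and 3647. Its scaled-up probe had 1.23 and −0.998. Rpl22, which mice need for the development of alpha-beta T cells, had ratios of −0.07 and −0.02 with its dimmer probe and 1.04 and −0.35 with its scaled-up probe. For Rpl21, where neither probe was scaled up, they were 0.21 and 0.04 (A_52_P258959) and 0.24 and −0.29 (A_52_P653937). For Rpl11 and Rpl22 the arrays lay close together on the dimmer probe and apart on the bright one. Probes not scaled up had wider gaps in Rpl13 (−0.55 and 0.23, A_52_P103513), Rpl35a (−0.03 and 0.63, A_52_P369054) and Rpl29 (−0.48 and 0.04, A_52_P217069).

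In the small subunit, Rps21 held the lowest mean ratios, and its 3 scaled-up probes differed in direction. Probe A_52_P740562 gave 64911 and 25919 in knock-out RNA, against 65487 and 101901 in wild-type RNA, and ratios of −0.49 and −0.50. Probe A_52_P678800 gave 38125 and 18242 in knock-out RNA, against 44564 and 59182 in wild-type RNA, and ratios of −0.63 and −0.28. Their means of −0.50 ± 0.13 and −0.46 ± 0.15 (SE, n = 2 arrays) had adjusted p of 0.28 and 0.36. Probe A_51_P489959, the brightest of all members, gave 278942 and 61696 in knock-out RNA, against 72814 and 282295 in wild-type RNA, with ratios of 1.33 and −0.59 and a mean of 0.37. The range of 0.86 between the probe means was the widest of the 39 genes with at least 2 tested probes. The lower pair shares 42 bases and is not an independent pair of readings, while the third lies elsewhere in the transcript. The third probe and the first 30 of the 42 shared bases are shown.
Rps21 A_51_P489959: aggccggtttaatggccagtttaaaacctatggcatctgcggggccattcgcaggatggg
Rps21 shared stretch: aacttttgagcagaagaaatcgggaatttg
On mm8 the third probe spans chr2:180187408-180187639, which is longer than the probe, and the lower pair lies at chr2:180187769-180187828 and chr2:180187787-180187846. The lower pair holds 20 and 23 A bases, and the third probe 13.

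Rps16, whose tail reaches the tRNA in the decoding site, had signals of 264898 and 26073 in knock-out RNA, against 43732 and 309335 in wild-type RNA. Its ratios of 2.04 and −2.02 went with the dyes and gave a mean of 0.01. Rps6, the substrate of the S6 kinases, had a bright probe on which the arrays stayed together: 79426 and 35823 in knock-out RNA, against 53338 and 101513 in wild-type RNA, and ratios of 0.10 and −0.01. Its mean of 0.05 had a 95% interval of −0.26 to 0.35. The arrays were this close only after normexp and loess. The same Rps6 probe had ratios of −0.32 and 0.17 in the deposited value table, and of −0.31 and 0.18 in the scanner program's log ratio. Rpsa, also known as the laminin receptor, had ratios of 0.78 and 0.02 with its scaled-up probe (mean 0.40, unadjusted p = 0.068, adjusted p = 0.55 in limma) and of −0.14 and 0.15 with its dim probe. Rps3a (A_51_P292357), named after its values were seen, had ratios of −0.38 and −0.31, a mean of −0.35 and an adjusted p of 0.45. The other Rps3a probe (A_52_P49886) had 1.04 and −0.59, with a mean of 0.22, so the probes of Rps3a lay on both sides of 0.

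Rps13 was the only member past an unadjusted p of 0.05 with a probe that was not scaled up. That probe (A_52_P646112) gave 7828 and 2444 in knock-out RNA, against 9752 and 6445 in wild-type RNA. Its ratios of −0.49 and −0.24 had a mean of −0.37 ± 0.14 (SE, n = 2 arrays), an unadjusted p of 0.030 and an adjusted p of 0.45. The scaled-up Rps13 probe had 1.66 and −1.05, with a mean of 0.30, so the probes of Rps13 lay on both sides of 0. Rps24, mutated in some people with Diamond-Blackfan anaemia, had ratios of 0.38 and 0.24 (A_52_P100002, adjusted p = 0.51) and of 0.25 and 0.02 (A_52_P537084) with its dimmer probes, against 0.75 and −1.03 with its scaled-up probe. The first of these gave 1320 and 760.4 in knock-out RNA, against 967.1 and 1293 in wild-type RNA. A probe of the X-linked Rps4x (A_52_P780667), with −0.18 and 0.32, and the second Rps6 probe (A_52_P531325), with 0.11 and −0.20, were among the 3 dimmest tested members. The cDNA-based probes Rps2 A_52_P182478 and Rps19 A_52_P129131 were too dim to be tested.

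**Figure D3:**
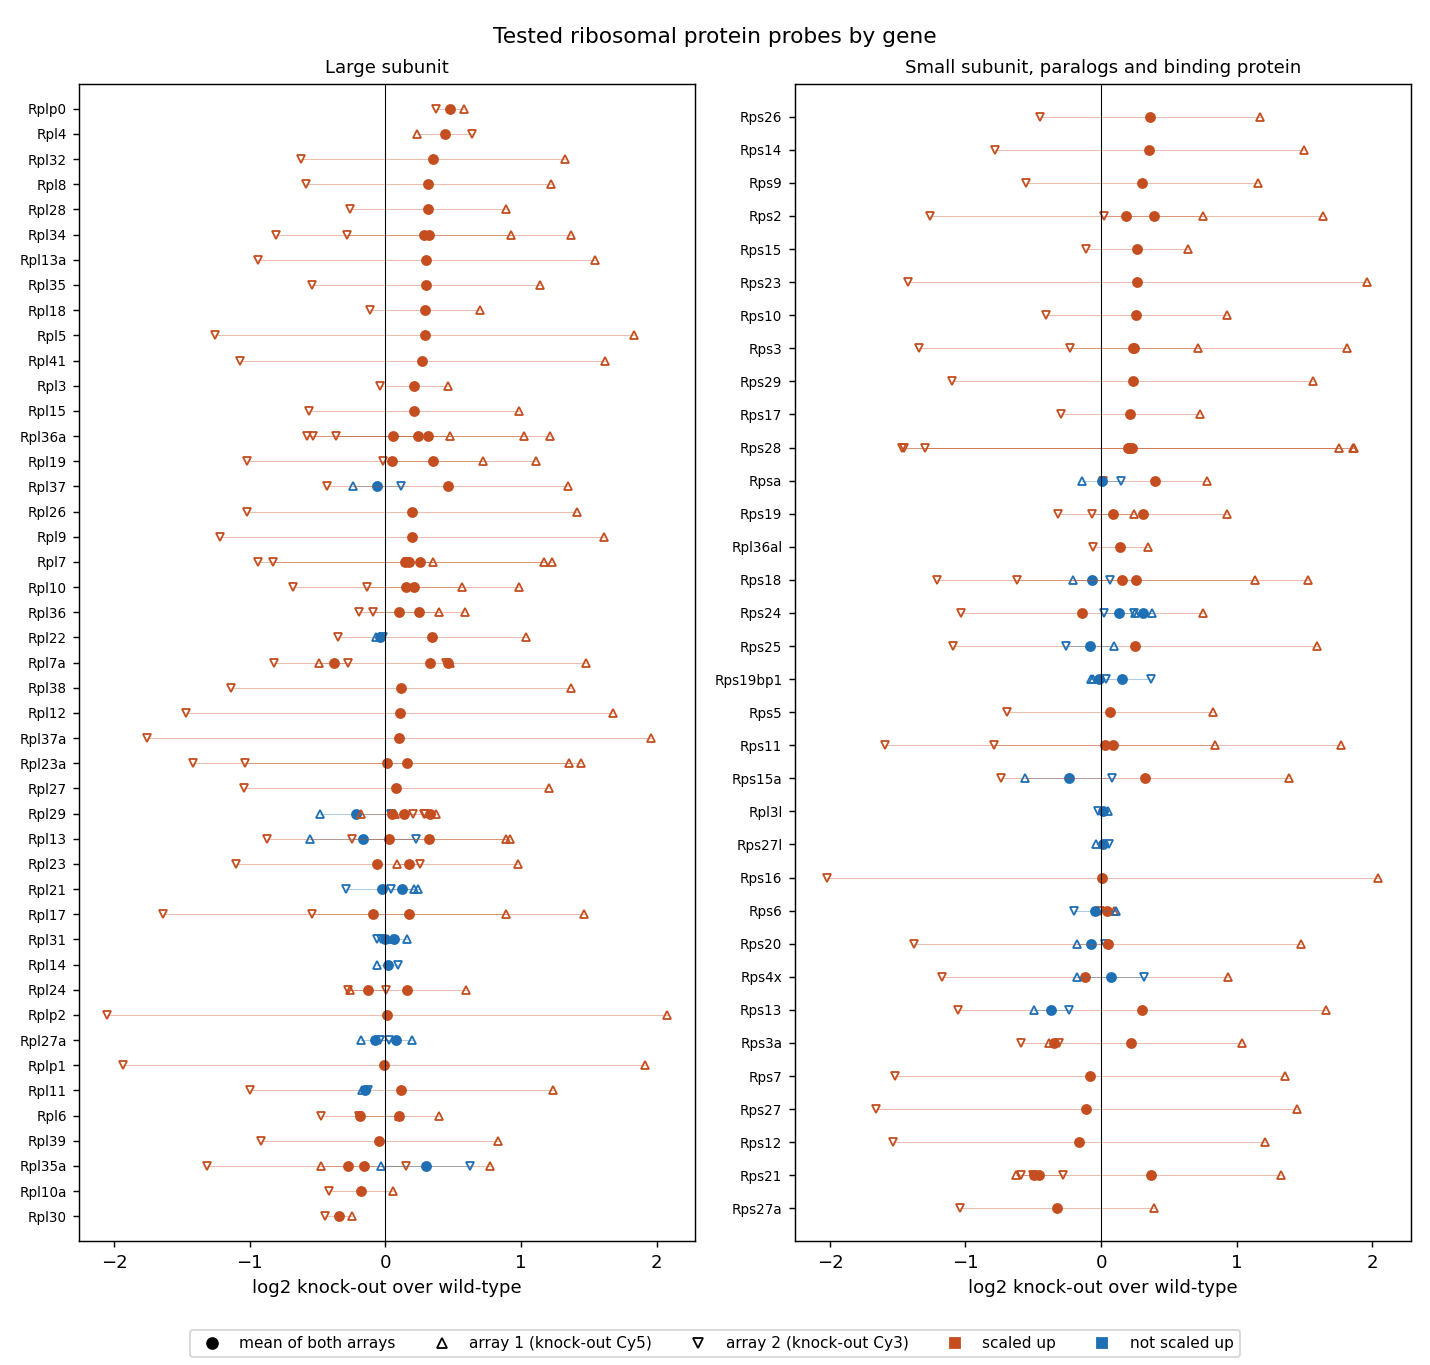
Log2 knock-out over wild-type (horizontal axis) of 128 tested probes of 79 genes, by gene (rows, ordered by the mean over a gene's probes). Filled circles are the mean of both arrays, upward triangles array 1 and downward triangles array 2, with scaled-up probes in red and others in blue. The means lie between −0.50 and 0.47, while the red triangles of most genes lie far to the right on array 1 and to the left on array 2.

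Both subunits showed the pattern of the whole set. The 74 large subunit probes had a median mean ratio of 0.13 (0.80 on array 1, −0.39 on array 2), and the 53 small subunit probes 0.19 (0.94 on array 1, −0.59 on array 2). The difference between the subunits was not tested. At an unadjusted p below 0.05, 6 large subunit probes passed, 4 higher and 2 lower in the knock-out, and 4 small subunit probes, all lower. These are 8.11% and 7.55% of the probes, below the 9.83% over all probes tested, of which 961 were higher and 1592 lower. Of the paralogs, Rpl3l, a form of Rpl3 expressed mainly in muscle, was the dimmest member of all, with 122.2 and 107.5 in knock-out RNA, against 131.1 and 101.2 in wild-type RNA. The 3 paralog probes had a median ratio of 0.02 and a smallest adjusted p of 0.86. The 2 probes of Rps19bp1 had means of −0.02 and 0.16.

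Probes of the same gene often fell on either side of 0. Of the 39 genes with at least 2 tested probes, 25 had probe means on both sides of 0, and the median range between a gene's probes was 0.26. Of the 64 pairs of probes of the same gene, 10 shared an identical run of at least 12 bases, and in 7 of these the overlap was not identical in an ungapped comparison. Of the 3 tested Rpl35a probes the overlapping pair is shown, with the bases at which it differs in capitals.
Rpl35a A_51_P509107: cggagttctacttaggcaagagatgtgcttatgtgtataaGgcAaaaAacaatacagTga
Rpl35a A_52_P288669: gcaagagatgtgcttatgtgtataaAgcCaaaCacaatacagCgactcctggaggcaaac
Rpl35a, and Rpl36 beside it, were chosen after their values were seen, as the pair with the widest gap on each array and a pair with a narrow gap, among overlaps that hold differing bases. The Rpl35a probes overlap by 45 bases and differ at 4 of them. The first gave 126051 and 21709 in knock-out RNA, against 51861 and 151936 in wild-type RNA, and ratios of 0.77 and −1.32. The second gave 41572 and 27476 in knock-out RNA, against 43494 and 67523 in wild-type RNA, and ratios of −0.47 and 0.15. Between them the log2 ratio differed by 1.24 on array 1 and by 1.47 on array 2. The Rpl36 probes overlap by 39 bases and differ at 2, and their ratios were 0.40 and −0.20 (A_51_P361875) and 0.58 and −0.09 (A_52_P233312). Thus 1 overlapping pair gave ratios close to each other, and the other gave ratios of opposite sign on each array.

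The deposited value table held smaller differences between arrays for the same spots. With a tolerance of 0.001, its log2 ratio equalled the scanner program's log ratio at 35 of the 143 ribosomal protein spots on array 1 and at 32 on array 2. The 108 and 111 other spots were all scaled up, and no source used here says how their values came about. In the authors' deposited table the members' median log2 knock-out over wild-type came to 0.01 on array 1 and 0.05 on array 2, against 0.34 and −0.23 in the scanner program's log ratio. The same sign on both arrays was found in 52 of the 132 probes in the deposited table, 36 in the scanner program's ratio and 20 after normexp and loess. The correlation between arrays across the 132 probes was −0.34 in the deposited table. Fitted in the same way, neither set of ratios gave a member past the adjusted threshold in limma, with 2 and 1 members at an unadjusted p below 0.05.

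**Figure D4:**
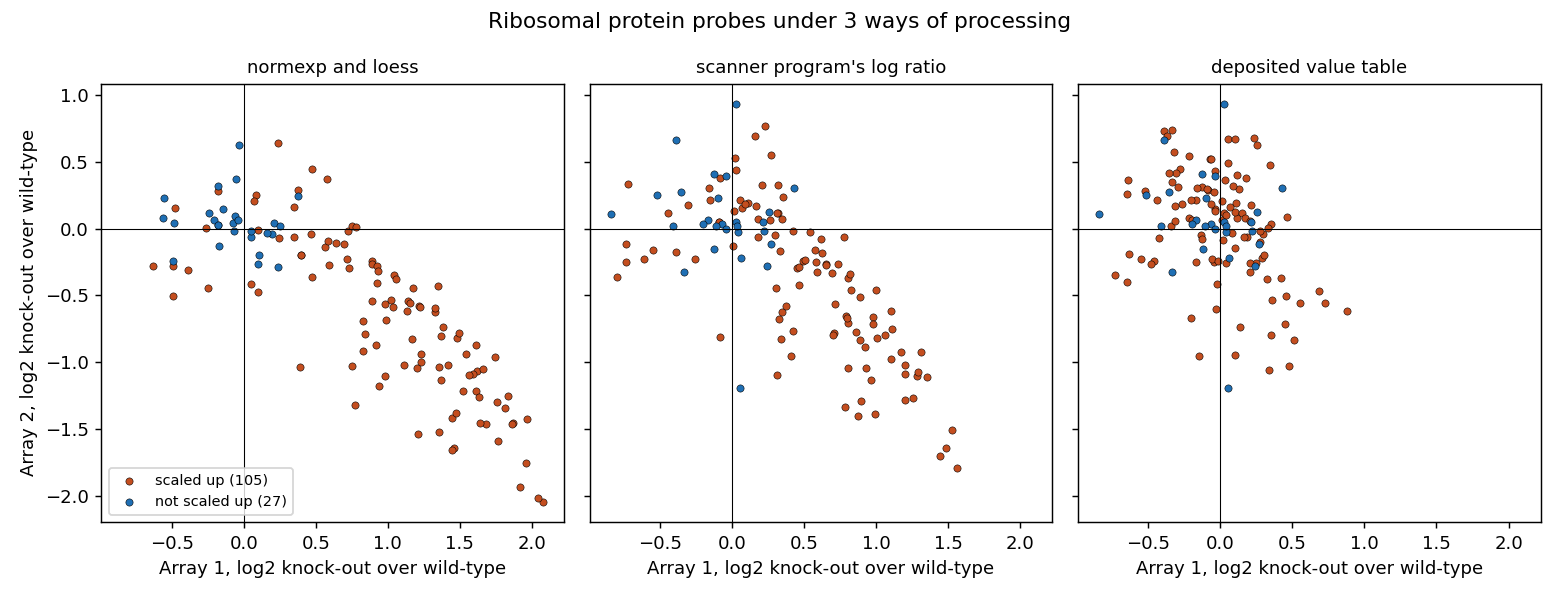
Log2 knock-out over wild-type of the 132 ribosomal protein probes on array 1 (horizontal axes) and array 2 (vertical axes) after normexp and loess, as the scanner program's log ratio, and in the deposited value table. Red points are scaled-up probes and blue points the others. The red points run to the lower right in the first panel (medians 1.04 and −0.62), less far in the second (0.51 and −0.33), and surround 0 in the third (0.02 and 0.06).

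The Fau probe and 1 of 2 Gnb2l1 probes, of other proteins on the ribosome, had opposite signs on the arrays too. Fau encodes a ribosomal protein fused to a ubiquitin-like protein, and Gnb2l1 (now Rack1) a scaffold on the small subunit. Fau had signals of 245261 and 27349 in knock-out RNA, against 40785 and 279084 in wild-type RNA, and log2 ratios of 2.04 and −1.81. Gnb2l1 had ratios of 1.499 and −1.477 with probe A_51_P488673 and of 0.41 and 0.12 with probe A_52_P404108. The smallest adjusted p of these 3 scaled-up probes was 0.60 in limma. The mitochondrial ribosomal proteins, which build the separate ribosome of that organelle, did not show the split. Their 122 tested probes had medians of −0.07 and 0.03, and 64 had the same sign on both arrays. Of them 0 were called and 4 had an unadjusted p below 0.05 (3.28%, against 9.83% of all probes tested). Mrpl52 at 0.48 and Mrpl1 at −0.42 lay furthest from 0. Only 14 of the 122 probes were scaled up.

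Genes of translation whose mRNAs also carry a terminal oligopyrimidine tract had 30 tested probes for 16 genes. Of these 0 were called (2 higher and 1 lower at an unadjusted p below 0.05, 3 of 30 probes, against 9.83% of all probes tested). The means ranged between −0.58 and 0.72, with a median of 0.07. Eif3s6 (now Eif3e), a subunit of an initiation factor, gave 11601 and 9169 in knock-out RNA, against 6095 and 13846 in wild-type RNA, with ratios of 0.76 and 0.68 and an adjusted p of 0.14. Eef1a1, the elongation factor that brings tRNA to the ribosome, had ratios of 1.09 and 0.29 and an adjusted p of 0.30. Regulators of these mRNAs, among them the mTOR complex and the S6 kinases, had 36 probes with a median of −0.05, of which 0 were called (4 at an unadjusted p below 0.05, or 11.1%, against 9.83% of all probes tested). The furthest from 0 were an Rps6kb1 probe, of an S6 kinase, with ratios of −0.34 and −0.53 (A_52_P170486, adjusted p = 0.35), and 4932417H02Rik (now Rptor), a part of the mTOR complex, with −0.53 and −0.31 (adjusted p = 0.37). The other tested Rps6kb1 probes had means of −0.40, −0.04, −0.03 and 0.10, so the low ratio was not shared by all probes of that gene.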

How the data were processed

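RNA of sorted B cells, 20 ng per condition, was amplified and labelled with Cy3 or Cy5, per the labels' protocols. The authors deposited scanner output in which spot intensity and local background were measured with Agilent Feature Extraction 9.5.3.1, per the submitters' processing notes and the file headers, with probes placed on mm8. A log10 ratio (Cy5 over Cy3) in these files was, per the file headers, background-subtracted and dye-normalized. The deposited value table holds log2 ratios of knock-out over wild-type, with a median of 0 on both arrays. Its scale and direction were settled by comparison with the log10 ratio, and its values at many scaled-up spots have no stated origin.

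With limma 3.58.1 (R 4.3.3), background was corrected by normexp (offset 50) and ratios were normalized by loess within each array (span 0.3, 4 iterations, control spots weighted 0). Spots with outlier flags were left out and spots of a probe averaged. A probe was tested where either genotype was well above background on both arrays. The fit used lmFit and eBayes with the dye swap as the sign of the design (1 residual and 6.97 prior degrees of freedom), and p-values, two-sided, were adjusted by Benjamini-Hochberg over all 25975 probes. The number of arrays limits the precision. Data were simulated for this comparison (20 draws, 200 of the 25975 probes changed). At least 98% of probes changed by 1.5 (log2) and 100% of those changed by 3 were recovered. A median of 18.5 unchanged probes (5 to 93) were called, so the adjusted p can be too small. The simulated spread was drawn from 1 distribution for all probes, with no part for brightness or dye. Among the 105 scaled-up members the SE had a median of 0.34 and reached 0.74, so the recovered shares do not carry over to them.

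Named probes were Rplp0, Rplp1, Rplp2, Rpsa, Rps6 and Rpl10, the largest same-signed ratios in each direction with and without scaling up, the widest gaps between arrays, the brightest and dimmest probes, genes whose dimmer probes differed most, and 2 probes of each other list. The members, lists and tests were chosen with earlier results of these data known. Of the 81 symbols, 80 are current in RefSeq. Alternatives changed the background correction, normalization, filter, model, treatment of scaled-up spots and choice of probe. The values of a few genes that the naming rule takes are not reported here.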

Additional observations from a re-analysis of the deposited data

How the results depend on the processing

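The count of 0 ribosomal protein probes past the adjusted threshold held in each of the 12 fits with another setting, with 0 to 11 members at an unadjusted p below 0.05. The count over all probes, 31, was less stable: it came to 124 where the prior was robust and followed intensity, 118 without scaled-up probes and 83 with scaled-up spots at weight 0 and left out. It was 14 with median centring, 9 with the brightest probe of each gene, 3 without background subtraction, and 0 without within-array normalization, with log ratios of the scanner program, with the deposited table and with separate channels (no replicate block). The main fit was already paired, because each array holds 1 pool of either genotype and the ratio within the array is that pairing. The 20 member probes with the same sign on both arrays became 52 in the deposited table, 36 with the scanner program's ratio, 7 of 81 with the brightest probe of each gene, and 6 of 27 both without scaled-up probes and with scaled-up spots at weight 0. The members' median of 0.14 was −0.12 with median centring, where the median of all probes was −0.16, and −0.34 without within-array normalization, where that of all probes was −0.38. It was −0.02 without scaled-up probes, and with 1 array alone it was 0.84 without replicate 2 and −0.44 without replicate 1, values with no test. Without within-array normalization, Rplp0, Rpl7a (A_51_P359862), Rpl29 (A_51_P400137) and Rpl4 had mean ratios of −0.036, −0.062, −0.18 and −0.11, below 0 as was the median of all probes. In all, 58 of the 392 recomputed mean ratios of the named probes, none of which passed the adjusted threshold, differed in sign from the value reported. These were 20 of 32 without within-array normalization, 10 of 32 with median centring, 10 of 32 without replicate 1 and 6 of 32 without replicate 2. They were 6 of 32 in the deposited table, 4 of 32 with the scanner program's ratio and 2 in the other settings. Among values with an unadjusted p of at least 0.05, 25 moved by more than the SD between the arrays. With 2 arrays, differences under the width of the intervals were not detectable.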

Other observations

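The base content of the 60-base probes ran along with the ratios. Across the 105 scaled-up ribosomal protein probes, Spearman's correlation of the mean log2 knock-out over wild-type with the number of A bases was −0.57, and with the number of C bases 0.52. Across the 1727 other scaled-up probes it was −0.24 for A and 0.10 for C, and across the 24143 tested probes not scaled up −0.31 for A and 0.22 for C. These are descriptions across probes that share both arrays, and brightness also ran along with the A count in the members (−0.69). The Rps21 pair with the lowest ratios and the Rpl7a probe below 0 hold more A bases than the probes of the same genes above 0.

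A related gene outside the rule, Rpl22l1, the paralog of Rpl22, had log2 ratios of 0.23 and −0.20 with its scaled-up probe (A_51_P218814) and of 0.42 and 0.53 with its dim probe (A_52_P65897, adjusted p = 0.30). Of the 133 member probes with a position on mm8, 42 spanned more genome than their own length, up to 3015 bases, 4 spanned less, and 87 spanned exactly 60.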
